A study of Homo sapiens with 5 samples.

Results

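The inhibitor of apoptosis (IAP) family was examined after BPTF silencing in a pair of human pigment cell lines. Its 6 members, BIRC2, BIRC3, XIAP, BIRC5, BIRC6 and BIRC7, were chosen by gene symbol, with no use of measured values, and are 6 of the 31029 genes listed for both lines. All 6 passed the filter on low counts and were among the 17918 genes tested. RNA-seq read counts were available from 5 libraries, 2 of 501Mel, a melanoma line that expresses MITF, and 3 of Hermes 3A, an immortalised human melanocyte line. Both lines were infected with lentivirus expressing short hairpin RNA against BPTF (shBPTF), a subunit of the NURF chromatin remodelling complex, and selected with puromycin. Control shRNA libraries were not analysed here, so no effect of the silencing can be given, and each comparison is between 2 lines that both carry shBPTF. The study used 2 hairpins against BPTF, and which of them these libraries carry is not given in the sources used here. 501Mel was grown in serum medium, whereas the Hermes 3A medium also held a phorbol ester, cholera toxin, stem cell factor and endothelin. Line, medium and the separately made gene tables therefore cannot be told apart. The labels number the replicates without saying that they came from separate cultures, and the p-values then measure only the spread between these samples.

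IAP proteins are defined by the BIR domain, a zinc-binding fold that in some members docks onto caspases, the proteases that carry out apoptosis. BIRC2 and BIRC3 (cIAP1 and cIAP2) are ubiquitin ligases of the TNF receptor complex, and XIAP binds and inhibits caspases directly. BIRC5 (survivin) works mainly in the chromosomal passenger complex at mitosis, BIRC6 (BRUCE or Apollon) is a giant ubiquitin-conjugating enzyme, and BIRC7 (ML-IAP or livin) is known for its expression in melanoma.

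The libraries held 30073071 to 43032311 counts, and 3 counts corresponded to 0.0697 to 0.0998 CPM (counts per 1000000 counts of that library). BPTF itself had 2832 and 2189 counts in 501Mel and 1906, 2110 and 1628 counts in Hermes 3A, and without control libraries these counts do not measure the silencing. Replicate 1 of Hermes 3A stood apart from replicates 2 and 3 of that line, with a chi-square per gene of 94.7 and 99.7 against 21.3 between those 2, and the 501Mel replicates differed by 74.1. It also had the highest summed level of 17 proliferation genes in its line, 501 CPM against 277 and 364 CPM. All 12 melanocyte lineage markers examined were detected in every library, with sums of 14234 to 34084 CPM, of which 501Mel held 14234 and 21672 CPM. The 9 fibroblast markers summed to 21.8 and 5.10 CPM in 501Mel and 275 to 334 CPM in Hermes 3A, mostly COL1A2 and FAP. COL3A1 was at 0 in Hermes 3A replicate 1 and PDGFRB in replicate 3. Of 8 leukocyte markers 7 were listed for both lines, with sums of 96.0 and 35.0 CPM in 501Mel, nearly all CD68, and 0.504 to 1.10 CPM in Hermes 3A, while PTPRC had 2 counts in 501Mel replicate 1 and 0 in the other 4 libraries, and MS4A1 was at 0 in 4 of 5. The 6 of 10 keratinocyte markers listed for both lines summed to 33.4 to 35.3 CPM in 501Mel and 64.1 to 75.6 CPM in Hermes 3A, with SFN at 0 in 4 of 5 libraries. For endothelial markers, 5 of 6 were listed for both lines and summed to 2.09 to 2.38 CPM and 9.47 to 13.0 CPM, with EMCN at 0 in 501Mel replicate 2 and CDH5 and CLDN5 at 0 in Hermes 3A replicate 3. The part of other cell types in the results was not tested, and in bulk RNA fewer cells that express a gene and less RNA per cell cannot be told apart.

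Promoter sequences were taken from RefSeq (GRCh38.p14) as windows of 300 bases, 250 before and 50 after each start. Windows were found for 5 of the 6 members, 9 in all, and no window was matched to BIRC5. BIRC7 is shown because it differed most between the lines, and BIRC2 and BIRC3 because these neighbours on chromosome 11 encode closely related proteins and differed widely in level. Capitals mark CACGTG and CATGTG, which are letters of the E-box class that MITF recognises, in BIRC7, and the NF-kB consensus in BIRC3. The BIRC2 window held none of these motifs. An NF-kB match in BIRC7 and a CATGTG in BIRC3 are left unmarked.
BIRC7, chr20:63235655-63235954, plus strand: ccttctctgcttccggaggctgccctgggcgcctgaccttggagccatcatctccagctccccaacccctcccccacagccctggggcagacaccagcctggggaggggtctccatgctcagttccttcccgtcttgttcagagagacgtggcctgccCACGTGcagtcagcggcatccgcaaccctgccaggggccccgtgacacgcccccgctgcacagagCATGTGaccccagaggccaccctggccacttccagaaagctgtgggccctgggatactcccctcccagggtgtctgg
BIRC3, chr11:102317234-102317533, plus strand: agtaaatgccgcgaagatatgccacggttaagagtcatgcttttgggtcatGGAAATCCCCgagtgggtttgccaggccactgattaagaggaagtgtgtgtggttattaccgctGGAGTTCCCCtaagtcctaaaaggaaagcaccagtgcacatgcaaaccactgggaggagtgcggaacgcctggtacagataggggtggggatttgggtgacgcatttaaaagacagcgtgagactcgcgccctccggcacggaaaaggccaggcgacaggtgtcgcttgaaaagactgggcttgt
BIRC2, chr11:102347124-102347423, plus strand: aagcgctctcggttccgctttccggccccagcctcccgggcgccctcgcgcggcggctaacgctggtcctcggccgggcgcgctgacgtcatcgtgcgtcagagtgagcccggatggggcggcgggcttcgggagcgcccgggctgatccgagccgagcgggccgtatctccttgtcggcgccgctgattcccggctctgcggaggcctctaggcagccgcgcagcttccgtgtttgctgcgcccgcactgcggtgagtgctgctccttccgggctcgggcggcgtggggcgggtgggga

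Both strands were searched. The BIRC7 window held 1 CACGTG, beginning 92 bases before the start, and 1 CATGTG, beginning 27 bases before it. Of all 35116 windows in the RefSeq table, 7.26% held CACGTG, 11.1% held CATGTG and 0.735% held both. Counted per gene, as the members are below, 8.77% of 27305 genes had CACGTG and 13.4% had CATGTG. BIRC7 was the 1 member of 5 with CACGTG, whereas CATGTG was found in 3 of 5, the others being BIRC3, 99 bases before the start, and XIAP, in 2 of its 3 overlapping windows. The NF-kB consensus matched at 2 places in the BIRC3 window, 199 and 135 bases before the start, which was the case in 2.04% of all windows. At least 1 match was found in 11.3% of windows and, counted per gene, in 13.3% of genes. Among the members it was also found in BIRC7, 24 bases after the start, and in 1 of 2 windows of BIRC6. Neither BIRC2 window matched any of these motifs, and the one printed is rich in G and C, at 74.0% against a median of 58.7% over all windows. These matches describe letters and do not show that a factor binds there.

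Of the 6 members, 3 were called higher in 501Mel and none lower at an adjusted p of 0.05, by the edgeR quasi-likelihood test with Benjamini-Hochberg adjustment over all genes tested. The 3 were BIRC2, BIRC5 and BIRC7. Of all genes tested, 48.4% were called, 24.3% higher and 24.1% lower in 501Mel, so that being called was common between these lines, and 3 of 6 is close to the share called in either direction. What set BIRC5 and BIRC7 apart from the other members was size. Their log2 fold changes were above those of 96.3% and 99.0% of genes tested, whereas the other 4 members lay between -0.36 and 0.41 on the log2 scale. With a log2 fold change of at least 1 also required, BIRC5 and BIRC7 were called. By this rule 34.3% of all genes were called in either direction and 17.2% higher in 501Mel, so that 2 of 6 is close to the share in either direction. The CPM ranges of the lines did not overlap for 5 of 6 members, the exception being BIRC3, and did not overlap for 69.9% of all genes tested. Without Hermes 3A replicate 1, 2 members remained called, BIRC5 and BIRC7.

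**Figure D1:**
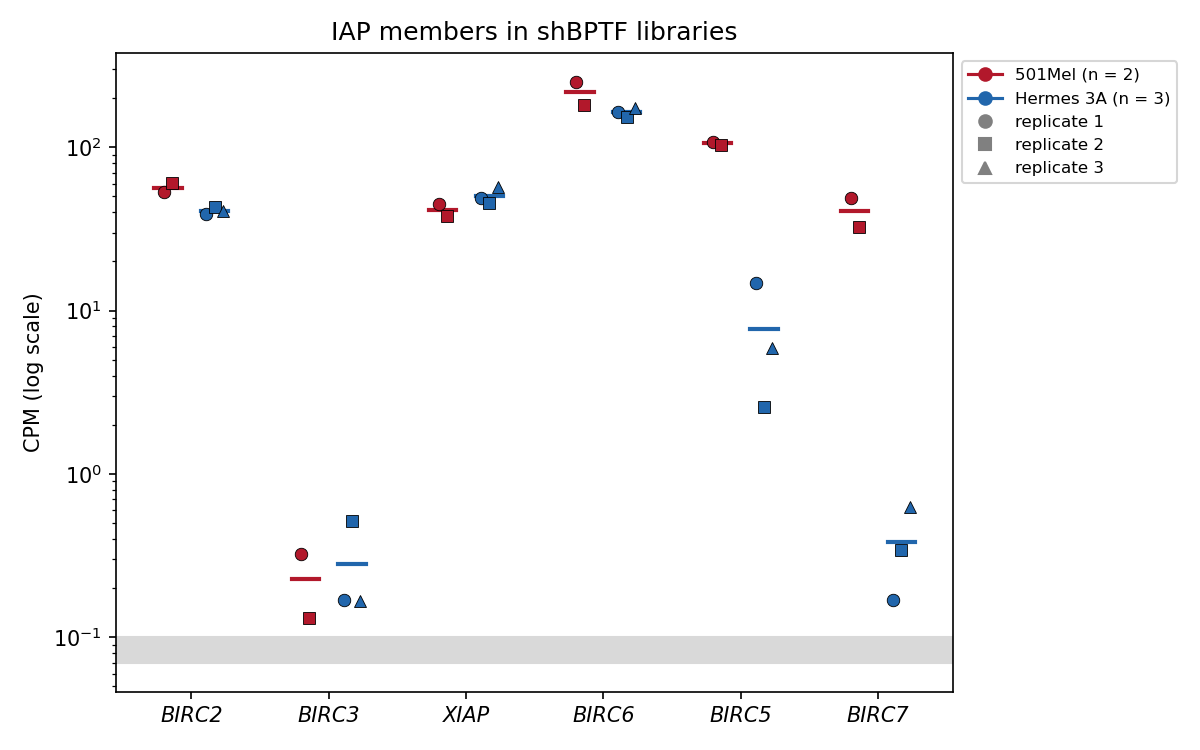
CPM (log scale) of the 6 members in each library, red for 501Mel (n = 2) and blue for Hermes 3A (n = 3), with marker shapes for replicate numbers, bars for group means and a grey band for the CPM that 3 counts give. BIRC5 and BIRC7 are widely apart between the lines, at 106 against 7.75 CPM and 40.5 against 0.381 CPM on average, and BIRC3 lies below 1 CPM in all 5 libraries.

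**Figure D2:**
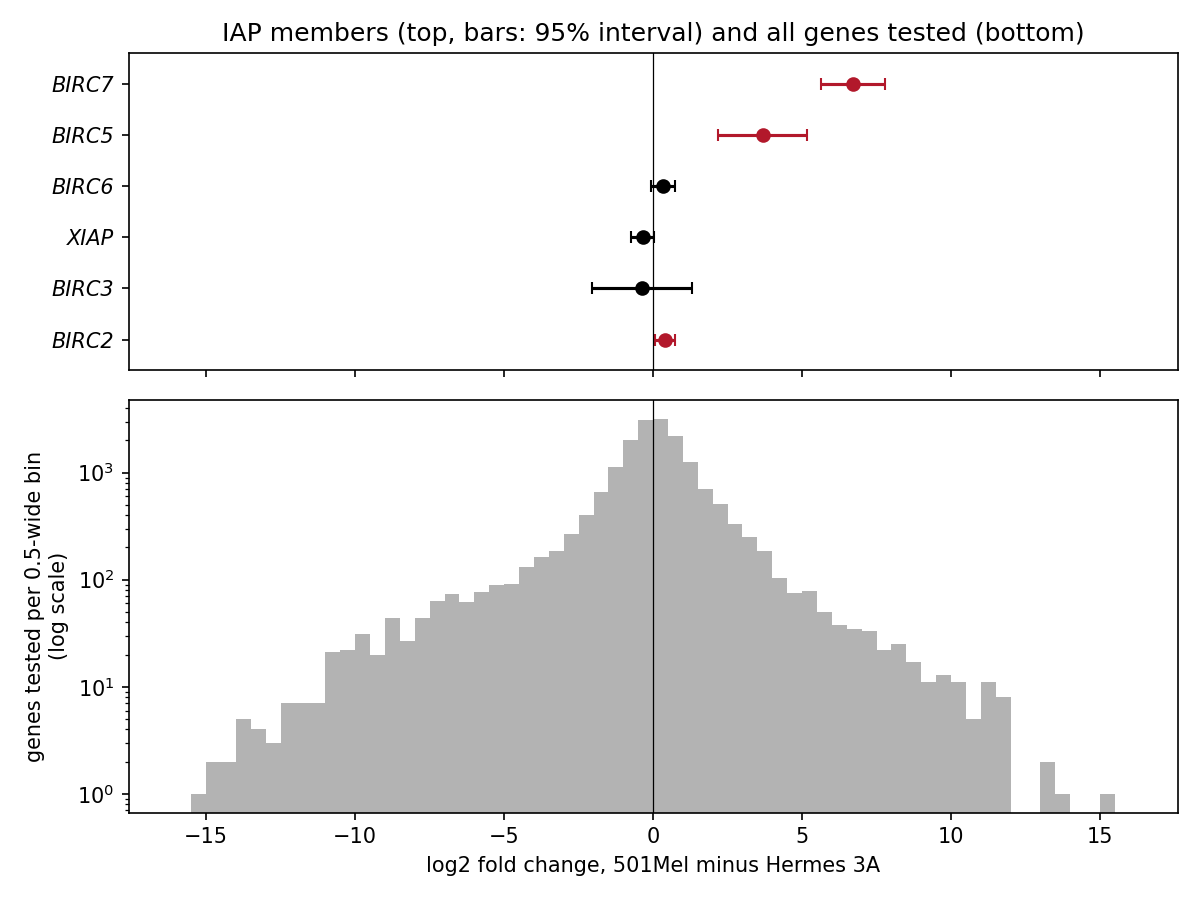
Log2 fold change of each member with its 95% interval (top, red where called higher in 501Mel) above the distribution of the log2 fold changes of all 17918 genes tested (bottom, log scale of genes per bin). BIRC7 at 6.71 and BIRC5 at 3.68 lie in the upper tail, whereas the other 4 members lie near 0, and the interval of BIRC3 is the widest, from -2.04 to 1.32.

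BIRC7 (ENSG00000101197, chromosome 20 of GRCh38, 63235883 to 63240507, plus strand), a ubiquitin ligase that binds caspases and the IAP antagonist SMAC, showed the largest difference of the family. It had 2093 and 1224 counts in 501Mel and 7, 14 and 19 counts in Hermes 3A. On the CPM scale it was at 48.6 and 32.3 CPM in 501Mel and 0.168, 0.343 and 0.632 CPM in Hermes 3A. Both 501Mel libraries were far above all 3 Hermes 3A libraries, and the lower 501Mel value was 51.2 times the highest Hermes 3A value. Means were 40.5 ± 11.5 CPM (SD, n = 2) in 501Mel and 0.381 ± 0.234 CPM (SD, n = 3) in Hermes 3A, a ratio of 106. Its log2 fold change was 6.71 (95% interval 5.63 to 7.80, adjusted p = 7.94e-05 by edgeR). It was called in all 10 alternative settings, with log2 fold changes of 6.35 to 7.21. The Hermes 3A counts of 7 to 19 were low but above 3 in every library, so that a low level of BIRC7 reads was detected there.

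MITF, a transcription factor that governs pigment cells, did not differ in this way. It was at 702 and 854 CPM in 501Mel and 643, 674 and 678 CPM in Hermes 3A, a log2 fold change of 0.17 (95% interval -0.22 to 0.55, adjusted p = 0.433 by edgeR). BIRC7 had 69.3 and 37.9 counts per 1000 MITF counts in 501Mel and 0.261, 0.509 and 0.932 in Hermes 3A. Among the 12 lineage markers, 3 were called higher in 501Mel and 6 lower, against 24.3% and 24.1% of all genes tested. DCT, a melanin synthesis enzyme, was at 1068 and 1300.3 CPM in 501Mel and 7.37, 8.83 and 13.1 CPM in Hermes 3A, a log2 fold change of 6.87 (adjusted p = 1.62e-05 by edgeR). SLC45A2, a melanosomal transporter, had a log2 fold change of 7.23 and EDNRB, the endothelin receptor, one of 1.36. DCT and SLC45A2 thus differed by about as much as BIRC7 and in the same direction. In contrast, OCA2, another melanosomal transporter, was lower in 501Mel with a log2 fold change of -3.07. The lineage transcription factors PAX3 and SOX10 were lower as well, at -1.12 and -0.68. The genes whose pattern over the 5 libraries was closest to BIRC7 were RNF144A-AS1, UGT2B7 and ZNF385C, with root mean square distances of 0.288, 0.318 and 0.344 on the log2 CPM scale after centring each gene on its mean.

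BIRC5 (ENSG00000089685, chromosome 17, 78214186 to 78225636, plus strand) was high in both 501Mel libraries and low and variable in Hermes 3A. It had 4641 and 3939 counts in 501Mel and 615, 105 and 178 counts in Hermes 3A. In CPM these were 107.8 and 104.1 in 501Mel and 14.8, 2.57 and 5.92 in Hermes 3A. The 501Mel values differed by a factor of 1.04, and the Hermes 3A values by 5.75, with replicate 1 highest. The groups did not overlap, since the lower 501Mel value was 7.05 times the highest Hermes 3A value. Means were 106 ± 2.69 CPM (SD, n = 2) in 501Mel and 7.75 ± 6.30 CPM (SD, n = 3) in Hermes 3A. Between the lines the log2 fold change was 3.68 (95% interval 2.19 to 5.17, adjusted p = 0.00318 by edgeR). Without Hermes 3A replicate 1 it was 4.60 (adjusted p = 0.000476), without replicate 2 it was 3.19, and it was called in all 10 alternatives.

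BIRC5 acts with AURKB, INCENP and CDCA8 (borealin) in the chromosomal passenger complex, which corrects kinetochore attachments and drives cytokinesis. All 3 were higher in 501Mel. AURKB, the kinase of the complex, was at 76.4 and 63.2 CPM in 501Mel and 9.27, 3.18 and 6.58 CPM in Hermes 3A, a log2 fold change of 3.38 (adjusted p = 0.000833 by edgeR). CDCA8, which binds BIRC5, differed by 3.69 on the log2 scale. INCENP, the scaffold, was at 144 and 93.2 CPM in 501Mel and 32.3, 31.1 and 34.1 CPM in Hermes 3A (adjusted p = 0.000453 by edgeR), with less variation among the Hermes 3A libraries than the other 2. Of the 4 genes that place or export the complex, the log2 fold changes were 3.13 for SGO1, 2.54 for HASPIN, 3.04 for BUB1 and 1.10 for XPO1, all called higher. AURKC, a related kinase best known from germ cells, was not called (log2 fold change -1.17, adjusted p = 0.135 by edgeR), with 6 to 16 counts per library. In all, 7 of 8 genes of this list were higher in 501Mel and none lower, where 24.3% of all genes tested were higher, with a median log2 fold change of 2.79 against 0.023 over all genes tested.

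All 17 genes of the proliferation list were higher in 501Mel, against 24.3% of all genes tested, with a median log2 fold change of 3.21. This list and the chromosomal passenger list were written with earlier results of these data known, so their counts are descriptive. Without Hermes 3A replicate 1, 17 genes of the proliferation list and 7 of the chromosomal passenger list were called. Without Hermes 3A replicate 3 these counts were 16 and 7, so not every proliferation call was kept in all alternatives. The proliferation genes with the smallest adjusted p were MCM2 and MCM5, of the replicative helicase, at 3.21 and 3.16, and TOP2A, topoisomerase II alpha, at 4.50. The summed level of the proliferation list was 2778 and 2181 CPM in 501Mel and 501, 277 and 364 CPM in Hermes 3A. Like BIRC5, it was higher in both 501Mel libraries than in any Hermes 3A library. Relative to MKI67, a marker of cycling cells, BIRC5 had 32.9 and 47.9 counts per 100 MKI67 counts in 501Mel and 43.1, 43.4 and 24.6 in Hermes 3A. These ratios overlapped between the lines, unlike the CPM of either gene. Per 100 AURKB counts BIRC5 had 141 and 165 in 501Mel and 159, 80.8 and 89.9 in Hermes 3A, which also overlapped. Set against the summed counts of the proliferation list, which does not hold BIRC5, the BIRC5 count equalled 3.88% and 4.77% in 501Mel and 2.95%, 0.929% and 1.62% in Hermes 3A, with no overlap. The part of the proliferating fraction in the BIRC5 difference was not tested. Nearest to BIRC5 in pattern were KIF2C, a mitotic kinesin, NCAPG, a condensin subunit, and DEPDC1, at distances of 0.114, 0.116 and 0.135 on the log2 scale over 5 libraries.

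**Figure D3:**
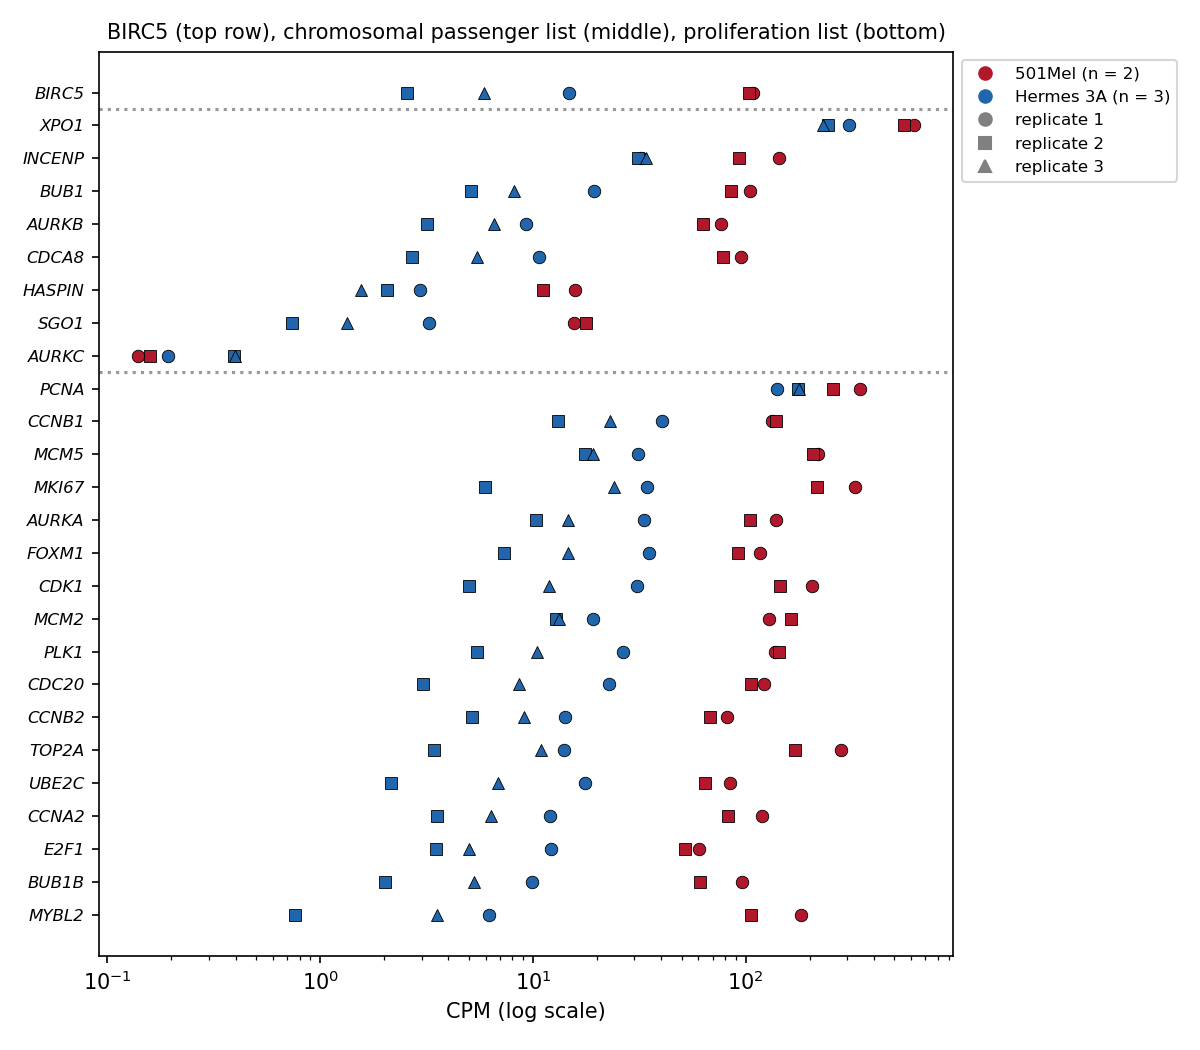
CPM (log scale) in each library of BIRC5 (top row), of the 8 genes of the chromosomal passenger list (middle) and of the 17 proliferation genes (bottom), red for 501Mel (n = 2) and blue for Hermes 3A (n = 3), with marker shapes for replicate numbers. The 501Mel points lie to the right of all Hermes 3A points in every row but AURKC, which was at 0.139 to 0.399 CPM.

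BIRC2 and BIRC3 lie on the same strand of chromosome 11, BIRC3 at 102317450 to 102339403 and BIRC2 at 102347211 to 102378670. BIRC2 (ENSG00000110330) had 2284 and 2281 counts in 501Mel and 1625, 1752 and 1234 counts in Hermes 3A. It was at 53.1 and 60.3 CPM in 501Mel and 39.0, 42.9 and 41.0 CPM in Hermes 3A. Both 501Mel libraries were above all Hermes 3A libraries, but the lower was only 1.24 times the highest Hermes 3A value. Means were 56.7 ± 5.08 CPM (SD, n = 2) in 501Mel and 41.0 ± 1.93 CPM (SD, n = 3) in Hermes 3A. The log2 fold change was 0.41 (SE 0.141, 95% interval 0.08 to 0.74, adjusted p = 0.0475 by edgeR). This call was close to the threshold and was kept in 2 of 10 alternatives, scaling by library totals and DESeq2, with adjusted p of 0.0275 to 0.257 and a positive log2 fold change of 0.28 to 0.50 in all 10. PISD, ARIH2 and DENND4B had the closest patterns, at distances of 0.0211, 0.0224 and 0.0248 on the log2 scale.

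BIRC3 (ENSG00000023445) had few reads in every library, with 14 and 5 counts in 501Mel and 7, 21 and 5 counts in Hermes 3A. It was at 0.325 and 0.132 CPM in 501Mel and 0.168, 0.514 and 0.166 CPM in Hermes 3A, and the groups overlapped. The log2 fold change was -0.36 (SE 0.716, adjusted p = 0.702 by edgeR), and its 95% interval of -2.04 to 1.32 spans a severalfold difference in either direction. Its sign turned to 0.11 without 501Mel replicate 2, and without Hermes 3A replicate 2 the gene had too few counts to be tested. BIRC2 had 163 and 456 counts for each BIRC3 count in 501Mel, and 232, 83.4 and 247 in Hermes 3A. Of the 50-base stretches of their annotated transcripts, 11 of 4483 in BIRC2 and 11 of 7075 in BIRC3 were shared between both genes, or 0.245% and 0.155%. SCART1, AC103952.1 and PIANP were nearest to BIRC3 in pattern, at distances of 0.0750, 0.236 and 0.242 on the log2 scale.

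The TNF receptor and NF-kB list holds the complex in which BIRC2 and BIRC3 act, and 27 of its 29 genes were tested. Of these, 3 were called higher in 501Mel, 10 lower and 14 not at all, with a median log2 fold change of -0.23. The 13 called are close to the 48.4% called over all genes tested. By direction, 24.3% of all genes tested were higher in 501Mel and 24.1% lower. TNFRSF1A, the TNF receptor, was at 42.4 and 30.0 CPM in 501Mel and 98.6, 86.9 and 84.5 CPM in Hermes 3A, and all 3 Hermes 3A values were above both 501Mel values. Its log2 fold change was -1.38 (adjusted p = 0.00137 by edgeR). TRADD, the adaptor that recruits RIPK1 and TRAF2 to the receptor, had a log2 fold change of -1.66 (adjusted p = 0.000796 by edgeR). NFKBIA, the inhibitor of NF-kB and one of its target genes, was at 8.83 and 9.11 CPM in 501Mel and 20.5, 33.1 and 33.6 CPM in Hermes 3A, a log2 fold change of -1.75 (adjusted p = 0.00150 by edgeR). The 3 genes higher in 501Mel were OTULIN, which removes linear ubiquitin, at 1.22, CHUK (IKK alpha), a kinase of the non-canonical pathway that BIRC2 restrains, at 1.08, and TAB1, a subunit of the TAK1 complex, at 0.75. The direct partners TRAF2 and RIPK1 were not called, at log2 fold changes of 0.01 (95% interval -0.39 to 0.42) and -0.29 (-0.62 to 0.04); these 2 were picked out here for their binding to BIRC2.

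XIAP (ENSG00000101966, chromosome X, 123859724 to 123913979, plus strand) had 1941 and 1433 counts in 501Mel and 2043, 1876 and 1710 counts in Hermes 3A. It was at 45.1 and 37.9 CPM in 501Mel and 49.0, 45.9 and 56.9 CPM in Hermes 3A. Both 501Mel values lay below all 3 Hermes 3A values, by a narrow margin, since 45.1 and 45.9 CPM adjoin. Means were 41.5 ± 5.13 CPM (SD, n = 2) in 501Mel and 50.6 ± 5.64 CPM (SD, n = 3) in Hermes 3A. A log2 fold change of -0.35 was found (95% interval -0.75 to 0.04, adjusted p = 0.12 by edgeR), which did not pass the threshold here or in any of 10 alternatives. Of its 50-base stretches, 4.70% also occur in transcripts of other genes, including the pseudogene XIAPP1, and an antisense gene, XIAP-AS1, overlaps it, so that reads may have been shared where the counting did not use strand. DNAJB14, STXBP4 and MAP3K9 were closest to XIAP in pattern, at distances of 0.0318, 0.0364 and 0.0486 on the log2 scale.

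Of the 4 genes for proteins that bind and antagonise XIAP, 1 was lower in 501Mel and 3 were not called, where 24.1% of all genes tested were lower. DIABLO (SMAC), which is released from mitochondria and displaces caspases, was at 16.5 and 16.3 CPM in 501Mel and 14.1, 16.7 and 18.4 CPM in Hermes 3A, a log2 fold change of -0.06 (95% interval -0.53 to 0.40). HTRA2, a mitochondrial protease with the same binding motif, had a log2 fold change of -0.07 (adjusted p = 0.737 by edgeR) and SEPTIN4, whose ARTS isoform binds XIAP, one of -0.53 (adjusted p = 0.317 by edgeR). SEPTIN4 was called without Hermes 3A replicate 1 (-0.87, adjusted p = 0.0167). XAF1, the XIAP-associated factor and an interferon-induced gene, had 3 and 2 counts in 501Mel and 68, 1337 and 1107 counts in Hermes 3A. It was thus at 0.0697 and 0.0528 CPM against 1.63, 32.7 and 36.8 CPM, and replicate 1 of Hermes 3A lay far below the other 2. Pooled over libraries, its level in Hermes 3A was 361 times that in 501Mel, with a counting interval of 154 to 1113 (exact binomial, 95%, counting error only). That interval leaves out the spread between the Hermes 3A libraries, whose CPM differed by a factor of 22.5. The 501Mel counts behind it were no higher than 3. The log2 fold change was -8.55 (adjusted p = 0.00490 by edgeR), or -9.12 without Hermes 3A replicate 1, and it was called in all 10 alternatives. XIAP had 2.74 and 2.33 counts for each DIABLO count in 501Mel and 3.49, 2.74 and 3.09 in Hermes 3A, with no clear separation at 2.738 against 2.743.

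The caspase and apoptosome list, which holds the proteases that IAPs act on, gave 1 gene higher, 2 lower and 7 not called among 10 reported, where 48.4% of all genes tested were called, with a median log2 fold change of 0.15. CASP8, the initiator at death receptors, was at 35.8 and 29.2 CPM in 501Mel and 23.1, 18.8 and 19.0 CPM in Hermes 3A, a log2 fold change of 0.61 (adjusted p = 0.0391 by edgeR). FADD, the adaptor that binds CASP8, was at 15.2 and 18.2 CPM in 501Mel and 33.0, 33.2 and 35.5 CPM in Hermes 3A, a log2 fold change of -1.09 (adjusted p = 0.00257 by edgeR), and CFLAR (FLIP), which inhibits CASP8, had -0.66 (adjusted p = 0.0498 by edgeR). FADD was called in all 10 alternatives, CASP8 in 4 and CFLAR in 3. The count of 3 called genes fell to 1, FADD, when either 501Mel replicate or Hermes 3A replicate 2 or 3 was left out. NAIP, an IAP of the inflammasome outside the 6 members, was not called, at 42 and 76 counts in 501Mel and 102, 139 and 66 counts in Hermes 3A (log2 fold change -0.90, adjusted p = 0.141 by edgeR).

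**Figure D4:**
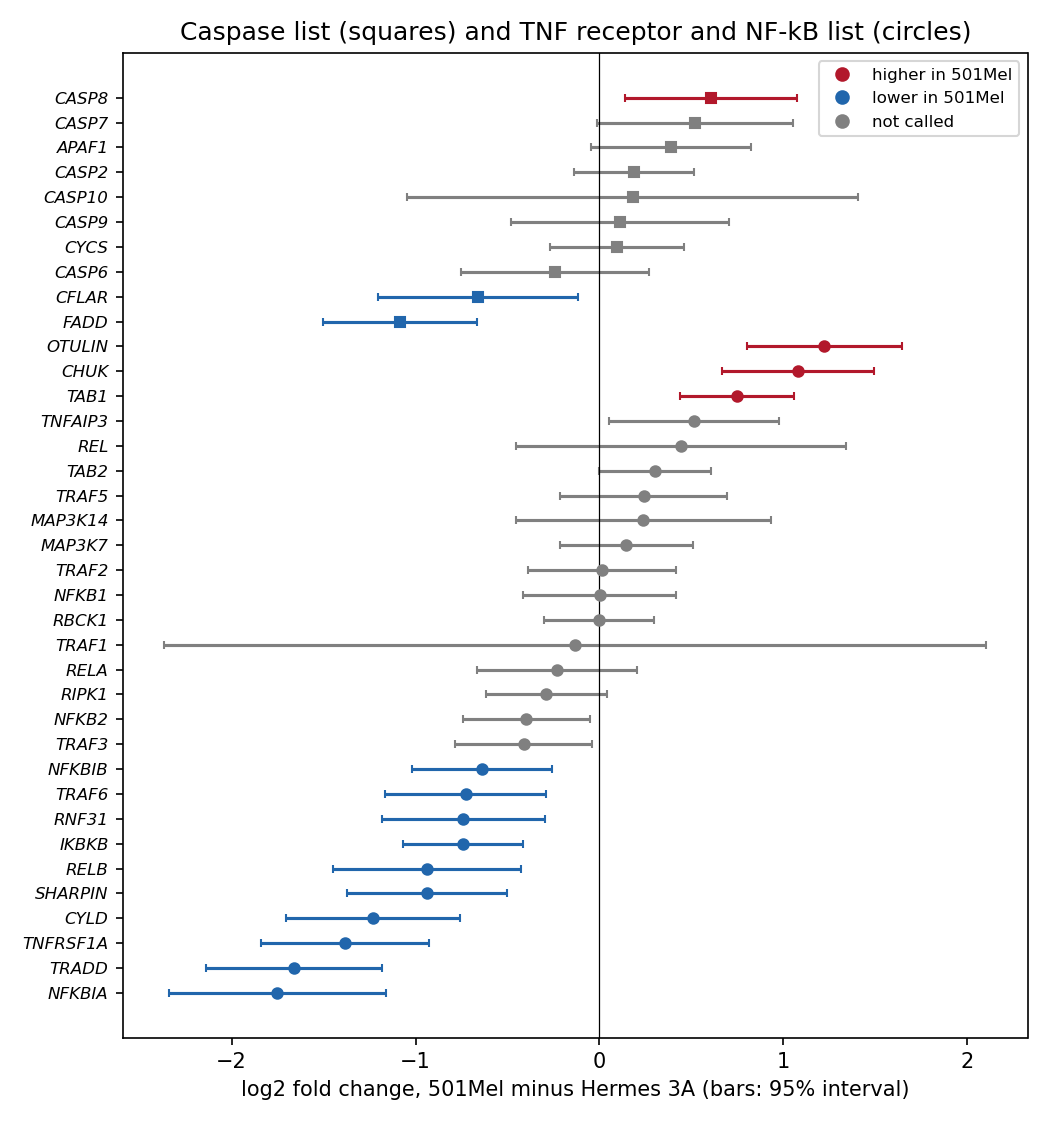
Log2 fold change (501Mel minus Hermes 3A) with its 95% interval for 10 genes of the caspase list (squares) and the 27 tested genes of the TNF receptor and NF-kB list (circles), red where called higher in 501Mel, blue where called lower and grey where not called. Of the TNF receptor and NF-kB genes 10 are blue and 3 red, with NFKBIA lowest at -1.75 and OTULIN highest at 1.22. Of all genes tested, 24.1% were called lower and 24.3% higher.

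BIRC6 (ENSG00000115760, chromosome 2, 32357028 to 32618899, plus strand) had the most counts of the family in every library. It had 10802 and 6923 counts in 501Mel and 6838, 6261 and 5234 counts in Hermes 3A. It was at 251 and 183 CPM in 501Mel and 164, 153 and 174 CPM in Hermes 3A. Both 501Mel values were above all Hermes 3A values, although the lower one exceeded the highest Hermes 3A value only by a factor of 1.05 and the 501Mel libraries differed from each other by 1.37. Means were 217 ± 48.2 CPM (SD, n = 2) in 501Mel and 164 ± 10.4 CPM (SD, n = 3) in Hermes 3A. The log2 fold change was 0.34 (95% interval -0.06 to 0.74, adjusted p = 0.140 by edgeR) and was not called in any of 10 alternatives. BIRC6-AS1 and BIRC6-AS2 are among the genes annotated over it, and the strand setting of the counting is not given in the sources used here. INIP, FAM13A and ERGIC1 were nearest in pattern, at distances of 0.0234, 0.0455 and 0.0469 on the log2 scale.

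Of 7 genes that work with BIRC6 in ubiquitination, at the midbody or in autophagy, 3 were higher in 501Mel, 1 was lower and 3 were not called, where 48.4% of all genes tested were called. UBA6, the activating enzyme that charges BIRC6 with ubiquitin, was at 90.0 and 85.3 CPM in 501Mel and 55.7, 49.6 and 48.6 CPM in Hermes 3A, a log2 fold change of 0.71 (adjusted p = 0.00621 by edgeR). UBE2Z, another conjugating enzyme charged by UBA6, went the other way, with a log2 fold change of -0.99 (adjusted p = 0.00148 by edgeR). It was at 125 and 139 CPM in 501Mel and 254, 245 and 253 CPM in Hermes 3A. The midbody genes KIF23 and CEP55, which serve the last step of cell division, differed by 3.16 and 3.17 on the log2 scale, similar in size to the proliferation list. ARF6 (-0.28), USP8 (-0.08) and LC3B (-0.38) were not called, although LC3B was called without Hermes 3A replicate 1 (-0.62, adjusted p = 0.0392 by edgeR).

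To compare levels between members, CPM were divided by the length in kb of the merged exons of the protein-coding transcripts, which ran from 1562 bases for BIRC7 to 15838 bases for BIRC6. On this scale the order in 501Mel was BIRC5 (33.3 ± 0.843 CPM per kb, SD, n = 2), BIRC7 (25.9 ± 7.38), BIRC6 (13.7 ± 3.04), BIRC2 (13.3 ± 1.19), XIAP (4.60 ± 0.568) and BIRC3 (0.0325 ± 0.0194). The means of BIRC5 and BIRC7 differed by less than the SD of BIRC7, but BIRC5 was the higher in both 501Mel libraries. BIRC5 and BIRC7 were at 33.9 and 31.1 CPM per kb in replicate 1 and 32.7 and 20.7 in replicate 2. BIRC6 and BIRC2 overlapped. In Hermes 3A the order was BIRC6 (10.3 ± 0.658 CPM per kb, SD, n = 3), BIRC2 (9.65 ± 0.455), XIAP (5.61 ± 0.625), BIRC5 (2.43 ± 1.98), BIRC7 (0.244 ± 0.150) and BIRC3 (0.0402 ± 0.0285). BIRC6 and BIRC2 overlapped there as well, and in replicate 1 BIRC5, at 4.63 CPM per kb, came close to XIAP, at 5.43.

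The summed level of the 6 members was 98.4 and 83.3 CPM per kb in 501Mel and 29.7, 26.0 and 29.2 CPM per kb in Hermes 3A. Without BIRC5 and BIRC7 the sums were 33.4 and 29.9 against 25.0, 24.9 and 27.0 CPM per kb, so that most of the difference lay in these 2 members. Their mean shares of the sum were 36.8% ± 3.39 and 28.3% ± 4.81 (SD, n = 2) in 501Mel and 8.35% ± 6.47 and 0.863% ± 0.511 (SD, n = 3) in Hermes 3A. Without Hermes 3A replicate 1 the BIRC5 share in that line was 4.73%. BIRC6, BIRC2 and XIAP took 15.0%, 14.9% and 5.06% in 501Mel and 36.6%, 34.3% and 19.8% in Hermes 3A. BIRC2 had 1.18 and 1.59 counts for each XIAP count in 501Mel and 0.795, 0.934 and 0.722 in Hermes 3A, and BIRC6 had 5.57 and 4.83 against 3.35, 3.34 and 3.06. Both ratios were higher in each 501Mel library than in any Hermes 3A library, and neither was tested. The shares rest on the length used. With the median length of all annotated transcripts, which is only 582 bases for BIRC6, BIRC6 led in both lines, at 52.3% in 501Mel and 65.4% in Hermes 3A, while BIRC7 took 4.34% in 501Mel and BIRC5 took 23.3% in 501Mel and 2.74% in Hermes 3A.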

How the data were processed

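Total RNA was depleted of ribosomal RNA and made into libraries that included normalization with a duplex-specific nuclease, which removes abundant species and can compress high levels. The authors deposited raw counts of reads on each Ensembl gene, which are whole and not scaled. The submitters' notes name CASAVA 1.8, TopHat 1.4.1, Bowtie 0.12.7 and hg19, and the counting program and its strand setting are not given in the sources used here. The tables list 37259 genes for 501Mel and 34033 for Hermes 3A, and the 31029 in both, with 99.3% to 99.9% of counts, were used. Names, lengths and gene coordinates are those of GENCODE 29 on GRCh38, not the build of the notes.

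Lines were compared with edgeR 4.0.16 in R 4.3.3 (quasi-likelihood test, TMM, filterByExpr, all 5 libraries, no covariate), with sign 501Mel minus Hermes 3A. SE were taken as the absolute log2 fold change over the square root of F, and 95% intervals from them. Alternatives were RLE size factors, library totals, no filter, DESeq2 1.42.0, a replicate block, each library left out, and other gene lengths. Motifs were searched with Python 3.11.15. A gene of the caspase list is not reported here. The fit was also run on simulated data in which few genes differed, unlike the 48.4% called here, so no conclusion is drawn from it. The members were set by gene symbol, whereas the lists and tests were chosen with earlier results of these data known. Named are the members, BPTF, the 3 nearest patterns for each member (smallest distance of centred log2 CPM), the called genes of each list with the 3 smallest adjusted p in each direction, every gene of pathway lists of 8 or fewer, and antisense genes that overlap a member. BIRC8 was not listed for both lines. TRAF2, RIPK1, MITF, MKI67 and the markers given were named in addition. Intervals and floors cover counting error only where so stated.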

Additional observations from a re-analysis of the deposited data

How the results depend on the processing

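BIRC5 and BIRC7 were called higher in 501Mel in each of 10 alternatives, whereas XIAP and BIRC6 were called in none and kept their sign in all 10. BIRC2 lost its call in 8 of 10, and so 2 or 3 members were called throughout. BIRC3 ranged from -1.14 to 0.11 on the log2 scale with a library left out, reversing to 0.11 without 501Mel replicate 2, and the cause was not tested. Between 6104 and 9282 genes were called over all alternatives. In the fit with a replicate block, 7496 genes and 2 members were called, and the call of BIRC2 was lost (adjusted p = 0.136 by edgeR). Same-numbered samples correlated in their deviations by 0.104 and 0.121, but with 2 shared numbers this is not a pairing. The caspase list gave 1 called gene under the block and 1 to 3 with a library left out, against 3, and the antagonist list 1 to 2, against 1. Leaving out a library leaves fewer samples to estimate the spread, and a lone 501Mel library is assumed to vary like Hermes 3A. The other lists stayed within 1.5 times their count. The alternative with no filter was not run for the lists.

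Shares of the summed level moved with the gene length. That of BIRC5 in Hermes 3A was 4.73% with replicate 1 left out, against 8.35%, a shift smaller than its SD of 6.47. With the union of all exons XIAP took 5.54% in 501Mel. With the median transcript length, 501Mel had 10.2% BIRC2, 9.80% XIAP, 23.3% BIRC5, 52.3% BIRC6 and 4.34% BIRC7, and Hermes 3A had 12.1% BIRC2, 2.74% BIRC5, 65.4% BIRC6 and 0.0673% BIRC7. The medians include short annotated transcripts. Depth limits BIRC3 in both lines and BIRC7 in Hermes 3A, with 5 to 21 and 7 to 19 counts.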
